A study of Mus musculus with 12 samples.

Results

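Cardiomyocytes, the contractile muscle cells of the heart, come in atrial and ventricular kinds, and 3 of 11 RNA libraries of mouse cardiomyocytes had far lower levels of several atrial genes than the other 8. The classes were chosen by a measured value, the counts per 1e6 library counts (CPM) of Myl7. The 3 atrial-poor libraries had under 2 CPM of Myl7, the gene of the atrial regulatory myosin light chain. The 8 atrial-containing libraries had 2 CPM or more. The atrial-poor libraries were replicates 2 and 3 of the group labelled ApoeKO_HFD and replicate 2 of the group labelled WT_HFD. The atrial-containing libraries were ApoeKO_HFD replicate 1, WT_HFD replicate 1, and all 3 replicates each of ApoeKO_CD and WT_CD. The series has 12 libraries in all, and WT_HFD replicate 3 was left out.

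The series concerns metabolic stress in mice that model diastolic heart failure with a normal ejection fraction. The mice were males, 7 to 8 weeks old at the start. By their labels, the ApoeKO groups carried the B6.129P2-Apoe tm1Unc/J knockout, which removes the lipoprotein component apolipoprotein E from every tissue, and the WT groups were C57BL/6J. The HFD groups ate a Western diet rich in fat with 0.21% cholesterol, the CD groups ate standard chow, and the labels give 7 weeks of diet for each group. The labels call the cells cardiomyocytes, do not say which chambers they came from, and do not say whether replicates were separate mice, so each p-value reflects only how far libraries of a group differ, which may be technical.

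Totals ran from 34155552 to 46424614 counts in the atrial-poor libraries and from 22130323 to 42360232 in the atrial-containing ones. Mitochondrially encoded genes held 64.0% to 71.3% of the counts in the atrial-poor libraries and 51.5% to 69.3% in the atrial-containing ones. Apoe counts went against the genotype labels on chow: Apoe had 8.58 to 27.2 CPM in the libraries labelled ApoeKO_CD and 2.29 to 3.45 CPM in those labelled WT_CD. On the high fat diet Apoe had 2.22 to 3.19 CPM in the libraries labelled ApoeKO_HFD, and 17.4 and 8.16 CPM in those labelled WT_HFD. Group names below are therefore labels only. The library left out had 1347110 counts, 5 of them on Myl7, and 60.06% of its counts over 1781 non-coding genes lying inside coding genes of the opposite strand fell on the non-coding gene, against 0.4197% to 0.6944% in the 11 others.

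Atrial and ventricular cardiomyocytes use different copies of the same machinery. In the adult mouse the atrial cell builds its sarcomeres with the light chains Myl7 and Myl4 where the ventricular cell uses Myl2 and Myl3. It restrains the calcium pump SERCA with sarcolipin (Sln) where the ventricular cell relies on phospholamban (Pln). It also stores the hormone atrial natriuretic peptide, made from Nppa, in granules, and Nppa returns in ventricular cells under load.

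Myl7 chose the classes, so its values describe the choice. Among the atrial-poor libraries it had 0.205 CPM (7 counts) in ApoeKO_HFD replicate 2, 0.608 CPM (24 counts) in ApoeKO_HFD replicate 3 and 0.0646 CPM (3 counts) in WT_HFD replicate 2. In the atrial-containing libraries it had 5.23 CPM in ApoeKO_HFD replicate 1, 13.6 in WT_HFD replicate 1, 9.04, 9.94 and 5.13 in the ApoeKO_CD libraries, and 7.66, 16.7 and 16.9 in the WT_CD libraries. The libraries nearest the threshold were ApoeKO_HFD replicate 3 at 0.608 CPM and ApoeKO_CD replicate 3 at 5.13 CPM, so no library lay near it. Summed over the 3 atrial-poor libraries Myl7 had 34 counts, or 0.283 CPM, with an exact Poisson 95% interval of 0.196 to 0.396 CPM that covers counting error only.

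The proximal promoters of Myl7, Myl4, Mybphl and Nppa were searched for motifs, since GATA factors are known regulators of the atrial programme. Only the 3 windows that held a match are shown. Each run is the 250 bases before the transcription start in RefSeq (GRCm38.p6), written 5′ to 3′ on the strand of the gene. Capitals mark matches to motifs searched on both strands: a GATA site (AGATAA or TGATAA), a T-box half-site (AGGTGT), an NKX2-5 site (TNAAGTG) and a MEF2 site.
Myl7, chr11:5898783-5899032, minus strand: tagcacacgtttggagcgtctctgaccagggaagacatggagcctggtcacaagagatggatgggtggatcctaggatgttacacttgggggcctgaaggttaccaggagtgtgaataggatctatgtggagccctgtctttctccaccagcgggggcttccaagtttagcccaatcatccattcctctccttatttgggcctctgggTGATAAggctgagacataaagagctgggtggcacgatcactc
Mybphl, chr3:108364661-108364910, plus strand: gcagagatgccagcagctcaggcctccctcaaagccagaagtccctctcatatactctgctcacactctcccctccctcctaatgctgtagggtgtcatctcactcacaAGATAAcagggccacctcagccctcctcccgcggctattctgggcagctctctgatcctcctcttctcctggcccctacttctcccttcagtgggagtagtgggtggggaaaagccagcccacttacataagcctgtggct
Nppa, chr4:148000472-148000721, plus strand: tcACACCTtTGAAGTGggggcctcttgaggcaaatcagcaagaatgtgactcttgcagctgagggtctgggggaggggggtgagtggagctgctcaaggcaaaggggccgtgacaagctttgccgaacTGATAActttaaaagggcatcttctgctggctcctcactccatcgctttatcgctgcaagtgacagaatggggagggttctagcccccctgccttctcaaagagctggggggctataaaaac
The capitals in Myl7 and Mybphl are 1 GATA match each. Those in Nppa are, from the left, a T-box half-site read on the other strand, an NKX2-5 match and a GATA match, with none overlapping another. The same window of Myl4 held no match. Among 32851 promoter windows of this length, 16.6% held a GATA match, 11.8% a T-box half-site, 10.1% an NKX2-5 match and 3.2% a MEF2 match. A match describes the letters only.

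Of the other atrial genes, 6 separated the classes with no overlap: Myl4, Sln, Mybphl, Dkk3, Nppa and Sbk3. From here values are CPM scaled by the trimmed mean of M-values (TMM), except those of Myl7 and Apoe in the text, which are plain CPM. The atrial-poor libraries are given in the order above, ApoeKO_HFD before WT_HFD, and then as lowest, median and highest of the 8 atrial-containing libraries. Since these genes mark the same cells as Myl7, no p is given for their class differences. Where counts of called genes below include them, that support is not independent of the choice of libraries. Myl4, the atrial essential light chain (chr11:104550663-104595753), had 1.72, 2.28 and 0.646 CPM in the atrial-poor libraries, against 13.2, 26.4 and 50.2 CPM in the atrial-containing ones. Every atrial-poor library lay below every atrial-containing one, and the fitted log2 difference within labelled groups was −4.09 (SE 0.82). Sln (chr9:53850164-53854560) had 0.149, 0.225 and 0.0445 CPM in the atrial-poor libraries, against 1.34, 3.40 and 4.47 CPM in the atrial-containing ones, a log2 difference of −4.10 (SE 0.67). Mybphl, a myosin-binding protein of atrial sarcomeres (chr3:108364911-108380057), had 0.261, 0.200 and 0.0668 CPM in the atrial-poor libraries, against 1.44, 3.32 and 5.78 CPM in the atrial-containing ones, a log2 difference of −4.12 (SE 0.69). These genes too had no overlap between classes, with the lowest value of all in WT_HFD replicate 2.

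Dkk3, a secreted protein of the Dickkopf family (chr7:112116017-112159057), had 0.373, 0.601 and 0.134 CPM in the atrial-poor libraries, against 3.06, 7.11 and 10.7 CPM in the atrial-containing ones. Its log2 difference was −3.95 (SE 0.66), close to those of the sarcomere genes. Nppa (chr4:148000722-148002079) had 23.4, 14.8 and 6.48 CPM in the atrial-poor libraries, against 41.1, 70.4 and 107 CPM in the atrial-containing ones, a log2 difference of −2.75 (SE 0.45). The classes did not overlap, but the mean in the atrial-poor libraries was 0.212 times that in the atrial-containing ones for Nppa and 0.0516 times for Myl4. Sbk3, a kinase gene, had 0.970, 0.551 and 0.223 CPM in the atrial-poor libraries, against 1.36, 2.73 and 5.84 CPM in the atrial-containing ones, again without overlap (log2 difference −2.46, SE 0.73). In bulk RNA, fewer atrial cells and less atrial RNA per cell cannot be told apart.

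**Figure D1:**
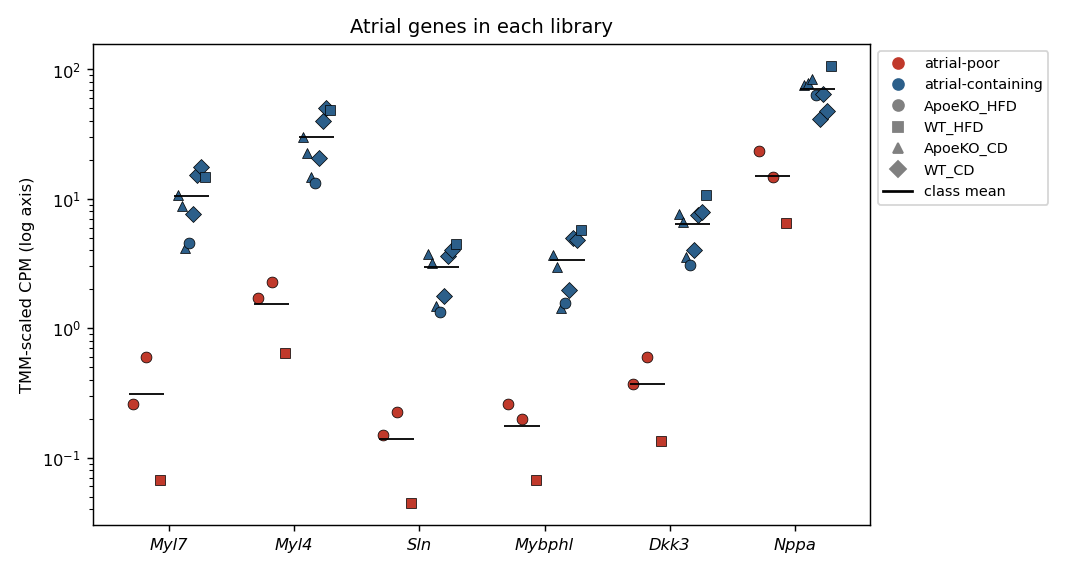
TMM-scaled CPM on a log axis of Myl7, which set the classes, and of Myl4, Sln, Mybphl, Dkk3 and Nppa in 11 libraries. Each point is a library, its shape the labelled group, and the bars are class means. For each gene the 3 atrial-poor libraries sit below the 8 atrial-containing ones, and the gap is narrowest for Nppa, where 23.4 CPM in ApoeKO_HFD replicate 2 faces 41.1 CPM in WT_CD replicate 1.

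The difference was larger between the libraries labelled WT_HFD than among those labelled ApoeKO_HFD. With ApoeKO_HFD replicate 1 left out, so that the class difference came from WT_HFD replicate 2 against replicate 1 alone, it was −6.22 for Myl4, −6.53 for Sln, −6.36 for Mybphl, −6.28 for Dkk3, −4.69 for Sbk3 and −4.04 for Nppa on the log2 scale. With WT_HFD replicate 1 left out, so that it came from ApoeKO_HFD replicates 2 and 3 against replicate 1, it was −2.72 for Myl4, −2.79 for Sln, −2.77 for Mybphl, −2.62 for Dkk3, −0.94 for Sbk3 and −1.77 for Nppa. These pairs of libraries also started from different atrial levels, since Myl7 had 13.6 CPM in WT_HFD replicate 1 and 5.23 CPM in ApoeKO_HFD replicate 1. Across all genes, the term that lets the class difference depend on the genotype label passed for 0 of 16931 genes at an adjusted p under 0.05 (edgeR). Before adjustment 560 genes were under 0.05, a smaller share than the 0.05 that uniform p-values give.

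Not every gene of the atrial list took part. Of its 20 members, Myl7 included, all 20 passed the filter on low counts, which kept 16931 genes besides Myl7. Of the 19 others, 16 had a fitted class difference below 0 and 3 above, where 52.2% of all genes were below 0. In 6 of the 19 all 3 atrial-poor libraries lay below all 8 atrial-containing ones (Myl4, Sln, Nppa, Mybphl, Sbk3 and Dkk3), where 0.502% of all genes did so. No member had all atrial-poor libraries above, where 0.543% of all genes did. The median log2 difference was −0.52, against −0.01 over all genes tested.

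The other 13 members overlapped between classes, and their differences ran both ways. Kcnj3 and Kcnj5, subunits of the acetylcholine-gated potassium channel, differed by −0.12 and 0.00 on the log2 scale. Kcnj3 had 44.6, 49.9 and 53.7 CPM in the atrial-poor libraries, against 35.8, 52.3 and 63.3 CPM in the atrial-containing ones, so the ranges overlapped in full. Tbx5, a T-box factor of the atria and the left ventricle, differed by −0.21, Nr2f2, an atrial identity factor, by −0.16, Gja5, connexin 40 of atria and conduction cells, by −0.43, and Kcna5, a voltage-gated potassium channel, by 0.52. Nr2f1, a relative of Nr2f2, differed by 0.43. Fgf12, a modulator of sodium channels, differed by −2.07 (SE 0.95), but by −0.07 without WT_HFD replicate 1 or 2 and by −6.05 without ApoeKO_HFD replicate 1. Stard10 differed by −0.59 (SE 0.24), with 9.22, 5.11 and 6.17 CPM in the atrial-poor libraries and 7.16, 11.05 and 12.8 CPM in the atrial-containing ones.

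Bmp10, a growth factor of the right atrium in the adult mouse, behaved apart from the rest. It had 0.0373, 0.351 and 0.0891 CPM in the atrial-poor libraries. In the atrial-containing ones it had 13.1 CPM in WT_HFD replicate 1 and 3.92 CPM in WT_CD replicate 2, and between 0.0795 and 0.53 CPM in the other 6. The log2 difference of −3.97 therefore had a wide error (SE 1.84), and the classes overlapped.

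**Figure D2:**
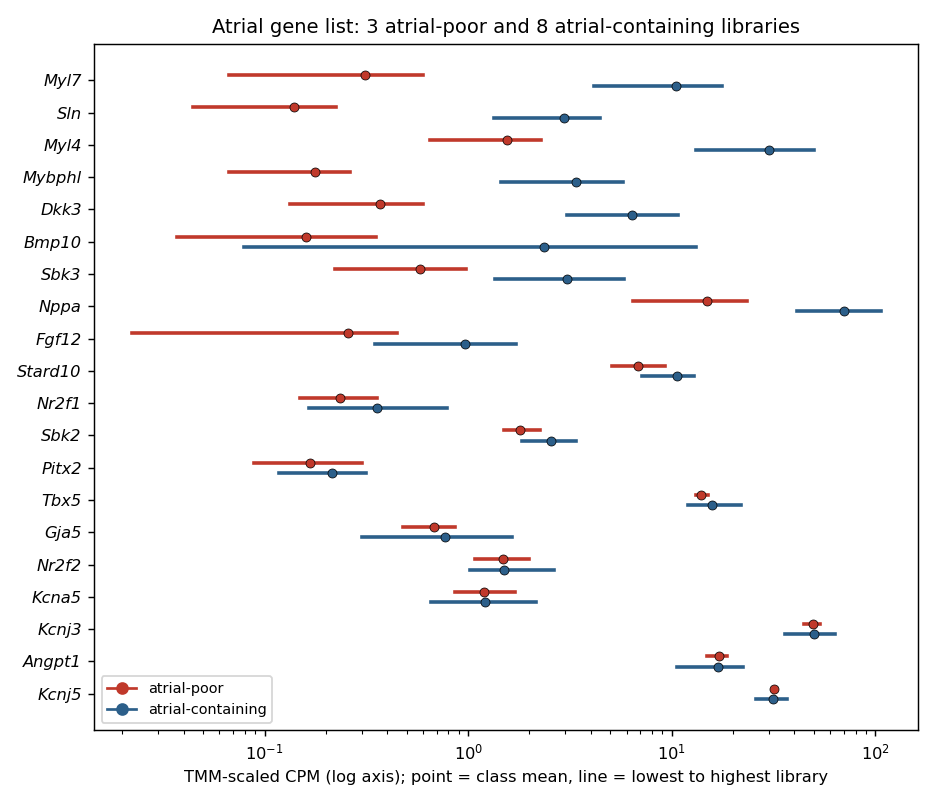
TMM-scaled CPM on a log axis for the 20 genes of the atrial list, ordered by the ratio of class means. Points are class means and lines run from the lowest to the highest library, with the atrial-poor line above the atrial-containing one for each gene. Lines of 7 genes, Myl7 among them, do not overlap between classes, while the class means of Kcnj3, Kcnj5 and Tbx5 nearly coincide.

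Set against a counterpart and divided by exon length, the atrial genes stood low in both classes. Exon length here merges all annotated exons of a gene: 590 bases for Myl7, 4637 for Myl4, 1950 for Myl2 and 2044 for Myl3. It is not the length of the transcripts present. The percentages are therefore not shares of transcripts, while comparing 1 ratio between libraries does not depend on the length. Myl7 stood at 0.0880%, 0.229% and 0.0194% of the level of Myl2, the ventricular regulatory light chain, per length in the atrial-poor libraries, against 1.16% to 5.04% in the atrial-containing ones. Myl4 stood at 0.0828%, 0.120% and 0.0280% of Myl3 per length in the atrial-poor libraries, against 0.4657% to 2.46% in the atrial-containing ones. Sln stood at 0.0392%, 0.0525% and 0.0086% of Pln in the atrial-poor libraries and 0.267% to 1.81% in the atrial-containing ones. The first of these ratios holds Myl7, so its gap between classes follows from the choice of libraries, and the other two also had no overlap. Among the atrial-containing libraries alone, Myl4 was 0.328 to 0.453 times Myl7 per length and Nppa 1.83 to 13.97 times, so the level of Nppa relative to Myl7 varied far more than that of Myl4.

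No gene of the ventricular list separated the classes, where 0.502% of all genes lay wholly below and 0.543% wholly above in the atrial-poor libraries. Pln, listed here among genes of both chambers, did not separate them either. Myl2 had 981, 868 and 1138 CPM in the atrial-poor libraries, against 973 to 1592 CPM in the atrial-containing ones, and Pln had 798, 899.5 and 1085 CPM in the atrial-poor libraries, against 430 to 1081 CPM in the atrial-containing ones.

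Among the 8 atrial-containing libraries, which the rule did not divide further, Myl4 and Mybphl rose with Myl7 when group terms were left out. A fit over these 8 without group terms, added after the data were seen, gave a log2 change per doubling of Myl7 of 1.07 for Myl4 (SE 0.13, adjusted p = 0.000463 in edgeR's quasi-likelihood test) and 1.11 for Mybphl (SE 0.18, adjusted p = 0.0247). The slopes were 0.93 for Sln (SE 0.20, adjusted p = 0.300), 0.85 for Dkk3 (SE 0.17, adjusted p = 0.169) and 0.82 for Sbk3 (SE 0.24, adjusted p = 0.760), which did not pass. Myl7 set the classes and these genes mark the same cells, so the p-values are no independent support for the class difference. With group terms neither Myl4 nor Mybphl was called. Nppa had a slope of −0.02 (SE 0.21, adjusted p = 0.990): its highest value, 107 CPM in WT_HFD replicate 1, and its lowest, 41.1 CPM in WT_CD replicate 1, stood at Myl7 levels of 13.6 and 7.66 CPM. The fit called 6 of 20197 genes, all rising with Myl7, which were Myl4, Mybphl, Egr1, Fos, Ier2 and Gm29216. The early gene Ier2 had a slope of 0.72 (SE 0.12, adjusted p = 0.0247). With group terms, which leave 3 residual degrees of freedom, Myl4 had a slope of 0.96 (SE 0.19, adjusted p = 0.291) and the only gene called was Gm25911.

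Ranked by Pearson correlation of log2 CPM with Myl7 over the 11 libraries, the 10 leading genes were Myl4, Dkk3, Sln, Mybphl, Sbk3, Nppa, Cacna2d2, Chd1l, Ankrd1 and Fras1. The class gap dominates such a ranking, so no coefficient is given. Of these, Ankrd1 had a slope of −0.19 (SE 0.11, adjusted p = 0.869) within the atrial-containing libraries.

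**Figure D3:**
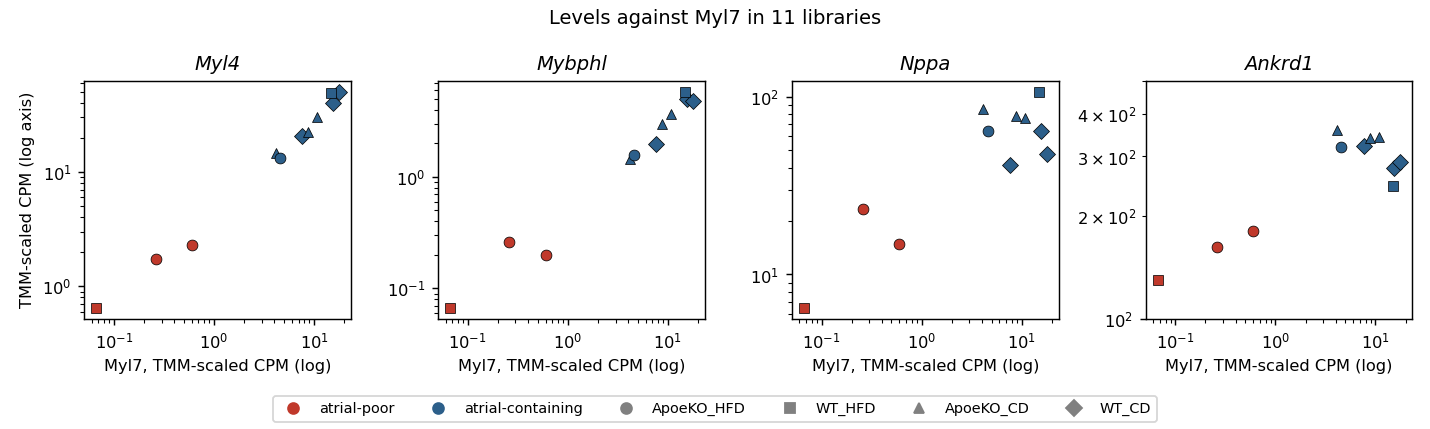
TMM-scaled CPM of Myl4, Mybphl, Nppa and Ankrd1 against that of Myl7 in 11 libraries, all axes logarithmic. Points are libraries, shapes are labelled groups. Myl4 and Mybphl go on rising with Myl7 among the 8 atrial-containing libraries (slopes 1.07 and 1.11 without group terms). Nppa (−0.02) and Ankrd1 (−0.19) differ between classes but have no such slope among these 8.

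Beyond the atrial genes, the class contrast across all genes was weak. It compares the classes within labelled groups, and since all 3 atrial-poor libraries were HFD libraries, it rests on 3 atrial-poor and 2 atrial-containing HFD libraries, with the CD libraries adding to the estimate of the spread. Both atrial-containing HFD libraries carry the replicate number 1. It called 0 of 16931 genes (0%) at an adjusted p under 0.05 in edgeR's quasi-likelihood test with Benjamini-Hochberg adjustment. At an unadjusted p under 0.05 there were 264 genes (1.56%), 150 lower (0.886%) and 114 higher (0.673%) in the atrial-poor libraries. Uniform p-values, as with no true difference, would put a share of 0.05 of the genes there, so 264 is no excess. DESeq2 with the same terms called 11: Mybphl, Nppa, Dkk3, Cilp2, Sln, Gpx3, Myl4 and Ankrd1 lower, and the mitochondrial genes mt-Co3, mt-Nd4l and mt-Te higher. Setting all 3 atrial-poor against all 8 atrial-containing libraries with no group term, edgeR called 4 genes (0.0236%), which were Sln, Dkk3, Mybphl and Ankrd1, but that comparison mixes the class with diet. With single libraries left out, edgeR called 7 genes without ApoeKO_HFD replicate 1, all lower (Myl4, Sln, Mybphl, Dkk3, Nppa, Sbk3 and Gm10925), 4 without ApoeKO_CD replicate 3, 2 without WT_HFD replicate 1 or 2, and 1 without WT_CD replicate 2 or ApoeKO_HFD replicate 2.

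Outside the atrial list the smallest p belonged to Ankrd1, the cardiac ankyrin repeat protein that binds titin and is known to be induced by load (chr19:36111961-36120099). It had 163, 181 and 130 CPM in the atrial-poor libraries, against 246, 321 and 359 CPM as lowest, median and highest of the atrial-containing ones. The classes did not overlap, with means of 158 ± 26.0 (SD, n = 3) and 312 ± 38.0 CPM (SD, n = 8). The fitted log2 difference was −0.90 (SE 0.14, adjusted p = 0.125 in edgeR's quasi-likelihood test), and it was −0.92 from the WT_HFD pair and −0.91 from the ApoeKO_HFD libraries. The comparison without group terms called it at −0.98 (adjusted p = 0.00549 in edgeR), as did the fit without WT_CD replicate 2 (adjusted p = 0.0274).

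Gpx3, the secreted glutathione peroxidase (chr11:54902453-54910377), had 24.3, 25.1 and 27.3 CPM in the atrial-poor libraries, against 29.5, 41.2 and 63.1 CPM in the atrial-containing ones. It too had no overlap, though 27.3 CPM in WT_HFD replicate 2 lay close to 29.5 CPM in WT_CD replicate 1 (log2 difference −0.97, SE 0.18, adjusted p = 0.171). Arid5a, an RNA-binding protein known to stabilise inflammatory transcripts, had 4.67, 4.43 and 6.72 CPM in the atrial-poor libraries, against 7.55, 9.27 and 12.1 CPM in the atrial-containing ones (log2 difference −0.94, SE 0.21, adjusted p = 0.685). The difference of Arid5a was −1.38 from the ApoeKO_HFD libraries and −0.35 from the WT_HFD pair. Among the 10 smallest p-values outside the atrial list at a mean log2 CPM of at least 1, the classes had no overlap in these 3 genes only.

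The others overlapped and none passed. Pnmt, which makes adrenaline from noradrenaline, differed by −1.29 (SE 0.29, adjusted p = 0.674). Cebpb, a transcription factor of acute inflammation, differed by −1.05 (SE 0.24, adjusted p = 0.678), but by −1.56 from the ApoeKO_HFD libraries and by −0.33 from the WT_HFD pair, and it passed without WT_HFD replicate 1 and without WT_HFD replicate 2 (lowest adjusted p = 0.0218). The stress gene Gadd45b differed by −1.03 (SE 0.26), with −1.48 from the ApoeKO_HFD libraries and −0.44 from the WT_HFD pair. The mitochondrial genes mt-Te, a tRNA for glutamate, mt-Co3, a subunit of cytochrome oxidase, and mt-Nd4l, a subunit of complex I, differed by 1.14 (SE 0.25), 1.08 (SE 0.27) and 1.23 (SE 0.32), and mt-Nd4l passed without ApoeKO_CD replicate 3 (adjusted p = 0.0490). With no group term, so that all 8 atrial-containing libraries count, the differences were 0.28 for mt-Te, 0.35 for mt-Co3 and 0.73 for mt-Nd4l. The share of all counts on mitochondrial genes overlapped between classes, and its part in these results was not tested. Cilp2, a matrix protein gene picked for its values, had 0.149, 0.175 and 0.0668 CPM in the atrial-poor libraries, against 0.478 to 2.06 CPM in the atrial-containing ones (log2 difference −2.92, SE 0.69, adjusted p = 0.808). Its difference was −1.54 from the ApoeKO_HFD libraries and −4.86 from the WT_HFD pair.

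**Figure D4:**
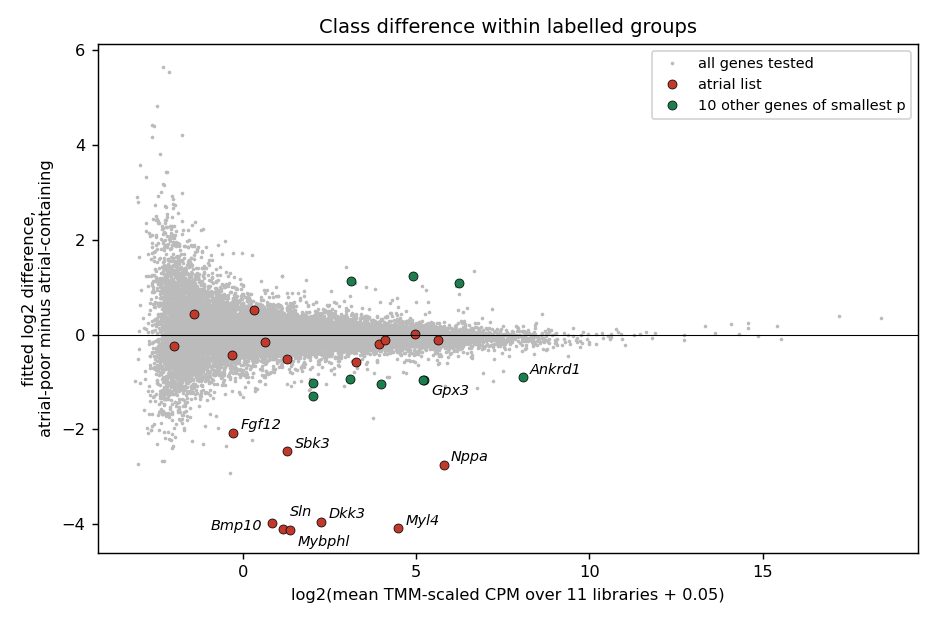
Fitted log2 difference, atrial-poor minus atrial-containing within labelled groups, against the log2 mean level for the 16931 genes tested. Red points are the 19 atrial genes besides Myl7, green points the 10 other genes of smallest p, grey points the rest. Myl4 (−4.09), Nppa (−2.75) and Ankrd1 (−0.90) stand out below the grey cloud at their level, while other red points lie within the cloud.

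Gene lists describe what else differed, each set against all genes, of which 52.2% lay below 0 with a median of −0.01, and against 0.886% with an unadjusted p under 0.05 lower and 0.673% higher. No member of any list passed over all genes tested. Among sarcomere genes, 19 of 26 tested were below 0 and the median was −0.16. Those with the largest deficits were atrial (Mybphl and Myl4), followed by Myl1, the light chain of fast skeletal muscle, with 2.84, 5.33 and 5.43 CPM in the atrial-poor libraries against 4.93 to 11.6 CPM in the atrial-containing ones (log2 difference −1.08, SE 0.29). Among regulators of SERCA and calcium handling, 14 of 21 were below 0 with a median of −0.06. The T-type calcium channel Cacna1g, used in pacemaking and atrial cells, had 12.1, 12.4 and 11.5 CPM in the atrial-poor libraries and 12.5 to 21.1 CPM in the atrial-containing ones, a log2 difference of −0.58 (SE 0.16) with the ranges just apart.

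The ventricular list had 9 of 12 genes below 0 and a median of −0.13. Its summed level was 2341 to 2756 CPM in the atrial-poor libraries and 2552 to 3692 CPM in the atrial-containing ones. Myh7, the slow myosin heavy chain that the mouse ventricle re-expresses under load, had 96.7, 71.7 and 59.5 CPM in the atrial-poor libraries, against 75.0 to 334 CPM in the atrial-containing ones (log2 difference −0.98, SE 0.29). Genes shared by both chambers had a median of −0.06. In 1 of the 20 all atrial-poor libraries lay below all atrial-containing ones, where 0.502% of all genes did so. This was Actn2, the alpha-actinin of the Z-disc. It had 877, 919 and 915 CPM in the atrial-poor libraries and 957 to 1154 CPM in the atrial-containing ones. Its log2 difference within labelled groups was small against its error (−0.17, SE 0.15). Potassium channels (median 0.02, with 10 of 23 below 0) and cardiac transcription factors (median 0.00, with 13 of 25 below 0) lay around 0.

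The nodal and conduction list had 7 of 10 genes below 0 and a median of −0.54, and its sum of 34.7 to 39.0 CPM in the atrial-poor libraries lay just below the 40.5 to 54.1 CPM of the atrial-containing ones. Natriuretic peptide and granule genes had 8 of 12 below 0 with a median of −0.09. Besides Nppa, Pam, which amidates peptides and is abundant in atrial granules, had 312, 297 and 264 CPM in the atrial-poor libraries and 269 to 400 CPM in the atrial-containing ones (log2 difference −0.41, SE 0.16). Gap junction and sodium channel genes had 7 of 11 below 0 with a median of −0.10. The fetal and hypertrophy list, which holds Nppa, Ankrd1 and Myh7, had 13 of 17 below 0 with a median of −0.19. It summed to 1622 to 1878 CPM in the atrial-poor libraries and 1838 to 2928 CPM in the atrial-containing ones.

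All 21 immediate early genes tested were below 0, with a median of −0.45, and 9 of them had an unadjusted p under 0.05. These are genes switched on within minutes of stimulation or cell isolation. Ier2 had 7.39, 6.24 and 12.3 CPM in the atrial-poor libraries against 8.37 to 23.3 CPM in the atrial-containing ones (log2 difference −0.81, SE 0.23). The summed list overlapped, at 482 to 761 CPM in the atrial-poor libraries and 590 to 1041 CPM in the atrial-containing ones. Clock genes had 12 of 18 below 0 with a median of −0.42, and of these genes 6 had an unadjusted p under 0.05 lower and 1 higher. Dbp, a clock output factor, had 7.61, 7.64 and 7.93 CPM in the atrial-poor libraries. In the atrial-containing ones it had 18.03 and 42.5 CPM on the high fat diet and 1.45 to 37.4 CPM on chow, so the classes overlapped (log2 difference −1.77, SE 1.06). In the fit of HFD libraries only it passed, at −1.75 (adjusted p = 0.0429 in edgeR). All 15 mitochondrially encoded genes were above 0 with a median of 0.23. Glycolysis and glycogen genes had 18 of 19 below 0 (median −0.14) and PPAR-alpha targets 13 of 20 (median −0.12). The sums of these lists went opposite ways in WT_HFD and ApoeKO_HFD. Atrial-poor against atrial-containing, the mitochondrial sum was 668101 against 727888 CPM in WT_HFD, but 908425 and 632964 against 483580 CPM in ApoeKO_HFD. The glycolysis sum was 3205 against 2890 CPM in WT_HFD, but 2970 and 2946 against 3645 CPM in ApoeKO_HFD. The PPAR-alpha sum was 4084 against 3306 CPM in WT_HFD, but 2493 and 2628 against 3571 CPM in ApoeKO_HFD.

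Markers of other heart cells also varied. Macrophage genes had 15 of 15 tested below 0 and a median of −0.84, with no unadjusted p under 0.05 in edgeR. They summed to 8.82 to 18.2 CPM in the atrial-poor libraries and 10.1 to 57.0 CPM in the atrial-containing ones. Within WT_HFD the sum was 8.82 CPM in replicate 2 against 38.5 CPM in replicate 1. Within ApoeKO_HFD it was not lower, at 14.1 and 18.2 CPM in replicates 2 and 3 against 13.8 CPM in replicate 1. Endothelial genes had 14 of 16 above 0 and a median of 0.39, with a sum of 128 to 222 CPM in the atrial-poor libraries and 88.4 to 216 CPM in the atrial-containing ones. Kdr, the main VEGF receptor, had 21.5, 26.4 and 38.9 CPM in the atrial-poor libraries and 14.2 to 29.4 CPM in the atrial-containing ones (log2 difference 0.76, SE 0.21). Both sums overlapped between classes.

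Endocardial and lymphatic genes had 7 of 10 below 0 (median −0.57), epicardial and mesothelial genes 7 of 9 (median −0.38), fibroblast genes 10 of 15 (median −0.16) and pericyte and smooth muscle genes 8 of 12 (median −0.11). Their sums overlapped as well, but some rest on few genes. Over the 11 libraries, Des had 293174 counts and Abcc9 77609 in the pericyte list, where Rgs5 came next at 7663. Prox1 had 29209 in the endocardial and lymphatic list, where Nfatc1 came next at 3457. Those sums therefore say little about the other members or the cell types. Epicardial and mesothelial genes summed to 3.27 to 7.46 CPM in the atrial-poor libraries and 2.63 to 10.4 CPM in the atrial-containing ones, and fibroblast genes to 42.5 to 60.3 CPM in the atrial-poor libraries and 39.4 to 70.4 CPM in the atrial-containing ones. Hbb-bs, a globin of red blood cells, had 0.448, 0.601 and 0.490 CPM in the atrial-poor libraries and at most 0.247 CPM in the atrial-containing ones. It had 78 counts over the 11 libraries and did not pass the filter among the 8 atrial-containing ones alone. It was thus tested only through the atrial-poor libraries, and its gap follows in part from the filter. Among all genes, 0.543% had all atrial-poor libraries above. Itga2b, the other tested gene of that list, differed by −0.14 (SE 0.80). Few members of the other lists passed the filter, at 4 of 11 for lymphocytes and neutrophils, 2 of 8 for erythroid cells and platelets, 2 of 10 for adipocytes, 4 of 11 for neurons and Schwann cells and 1 of 10 for thymus, lung and liver. Over all these lists only the platelet gene Gp9 was at 0 in all 11 libraries. The part of these cells in the class differences was not tested.

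**Figure D5:**
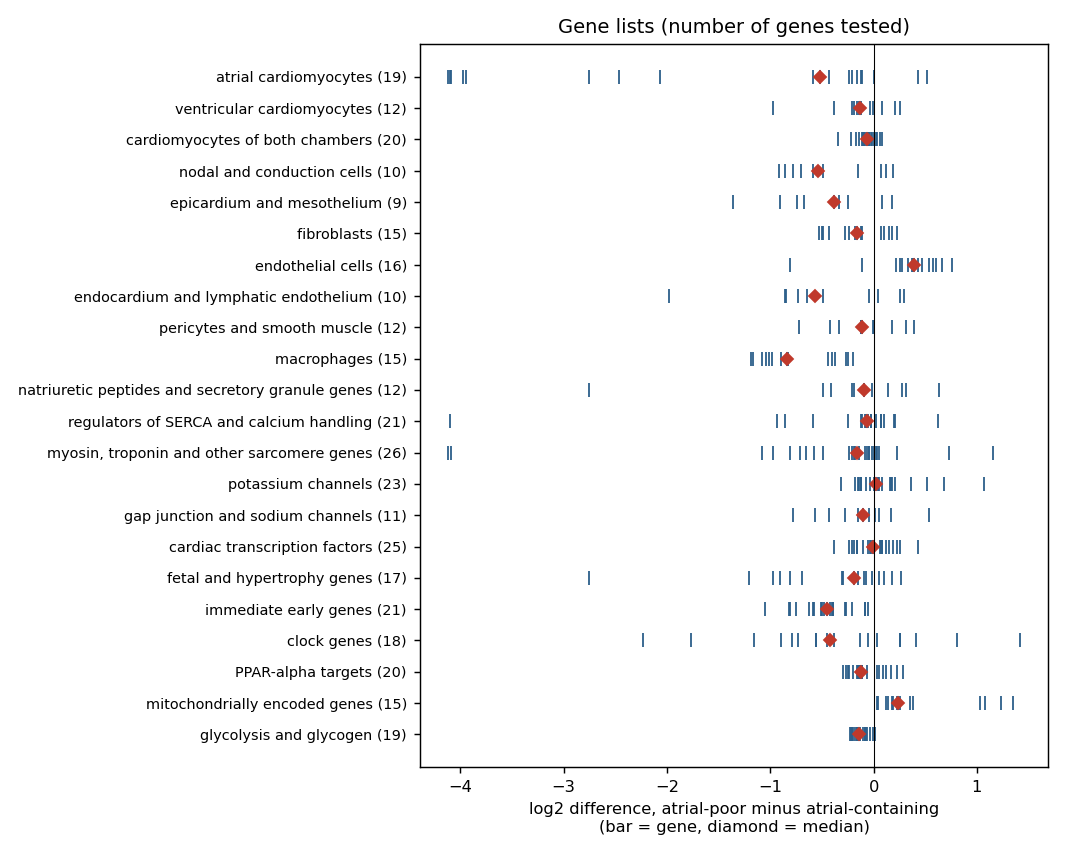
Fitted log2 difference, atrial-poor minus atrial-containing within labelled groups, for the members of 22 gene lists with at least 5 genes tested (blue bars), with the list median as a red diamond. The atrial list spreads from −4.12 to 0.52, immediate early and macrophage genes lie wholly below 0, mitochondrially encoded genes wholly above, and chamber-shared and potassium channel genes centre near 0.

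The class was not spread evenly over the diets. Atrial-poor libraries were 3 of 5 on the high fat diet and 0 of 6 on chow (two-sided Fisher's exact test, p = 0.0606). The counts were the same at Myl7 thresholds of 1 and 4 CPM. No other split of 3 atrial-poor libraries gives a smaller p, so the test could not fall under 0.05 and decides nothing. With every atrial-poor library on HFD, class and diet cannot be told apart for any gene compared between diets without a class term.

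In the comparison of the libraries labelled ApoeKO_HFD with those labelled ApoeKO_CD, which also differ in their Apoe counts, 2 of 3 HFD libraries and 0 of 3 CD libraries were atrial-poor. Without a class term, the log2 difference of HFD minus CD was −1.94 for Myl4, −2.20 for Sln, −1.92 for Mybphl, −2.08 for Dkk3 and −1.22 for Nppa. With the class as a term it was 0.09 for Myl4, −0.52 for Sln, −0.23 for Mybphl, −0.30 for Dkk3 and 0.41 for Nppa. The median over the 19 atrial genes was −0.40 without the term and −0.12 with it. Myl7 set the class and these genes mark the same cells, so smaller differences with the term follow in part from the choice of libraries. Not all of the 19 had smaller differences with it. Bmp10 differed by 0.84 without the term and 2.95 with it, and Kcna5 by −0.13 and −0.45. The difference of Nr2f1 was also larger in size with the term, at −1.27.

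With the class term 7 genes (0.0413%) were called between these groups by edgeR's quasi-likelihood test, 6 higher and 1 lower in ApoeKO_HFD, and without it 12 (0.0709%), 9 higher and 3 lower. All 7 were among the 12. They were Igsf23, Zfp30, Blvrb, Trappc6a, Hif3a and Pnmal2, which rose, and Lgals4, which fell, all on chromosome 7, which also holds Apoe. Of the 12 called without the term, 9 were on that chromosome. Its share of all genes tested is not given here, and the part of the Apoe locus in these calls was not tested. Apoe itself had 2.22 to 3.19 CPM in the ApoeKO_HFD libraries and 8.58 to 27.2 CPM in the ApoeKO_CD libraries. The count of 7 fell to 1 without ApoeKO_CD replicate 1 or 2, or without any one of the ApoeKO_HFD libraries, and to 3 with the replicate block. Of the 5 genes called only without the term, Scd2, a fatty acid desaturase, differed by 1.73 (SE 0.23, adjusted p = 0.00199) without it and by 1.65 (SE 0.30, adjusted p = 0.0710) with it. The others were Ercc2, Bcam, Zkscan3 and Tmem181b-ps. The size of these differences changed little, as for Ercc2 with −1.05 (SE 0.19) without the term and −1.11 (SE 0.25) with it.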

How the data were processed

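Per the labels' protocols, a Maxwell RSC simplyRNA kit gave the RNA and the SMART-Seq Stranded kit the libraries. The submitters' processing notes name the tools Trimmomatic 0.39, STAR 2.7a and HTSeq 0.13.5 and the mouse build GRCm38 (mm10). The deposited files hold raw read counts per gene, with no normalization by the authors. Of 55335 gene rows, 55154 had a symbol in the annotation.

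Differences were tested on the counts with edgeR 4.0.16 in R 4.3.3: TMM factors, filterByExpr by labelled group, 4 group means plus the atrial class, and the robust quasi-likelihood F test with 6 residual degrees of freedom. Two-sided p-values were adjusted over all 16931 genes other than Myl7 (Benjamini-Hochberg), and genes with an adjusted p under 0.05 count as called. WT_HFD replicate 3 was in no fit. The fits were checked on simulated counts. The members and lists were chosen with earlier results of these data known. Named genes are the 20 atrial genes, the 10 smallest p-values outside them at a mean log2 CPM of at least 1 (1 of them is not reported here), the 2 smallest p-values of each of 27 lists, not all of which are printed, and the 10 genes most like Myl7. Others were chosen after their values were seen, namely Bcam, Cilp2, Dbp, Ercc2, Fos, Egr1, Myl1, Myl2, Myl3, Pln, Scd2 and the other genes called in single fits.

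Replicates of a group differed by more than counting noise (chi-square per degree of freedom 24.5 to 189.7), so none was taken as a duplicate. Groups share replicate numbers, but of 15 same-numbered pairs only 1 had deviations from group means correlating above 0.1 (range −0.18 to 0.19), so libraries were not treated as paired. Alternatives were RLE factors, DESeq2 1.42.0, other filters, other group terms, HFD libraries only, a replicate block, Myl7 as a continuous term, mitochondrial genes removed and each library left out. Promoter sequences are from RefSeq.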

Additional observations from a re-analysis of the deposited data

Results flagged for a closer look

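Among the 8 atrial-containing libraries, 4 of 30 genes examined had a library standing far from the others, by Dixon's test at the 95% level. Chance passes that level in about 1 in 20 genes not picked by their values, in libraries of 1 group. Here genes were partly picked by small p and the libraries span labelled groups, so that rate is no guide. WT_HFD replicate 1 held 3 of them: Bmp10 at 13.1 CPM with the next library at 3.92, Nr2f2 at 2.63 CPM with the next at 1.74, and Gpx3 at 63.1 CPM with the next at 44.2. ApoeKO_HFD replicate 1 held the fourth, Cebpb at 31.6 CPM with the next at 18.4. Both are the atrial-containing HFD libraries on which the class differences rest. Gpx3 and Cebpb were picked for a small p in that contrast, which favours genes with outlying values in these libraries.

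In WT_HFD replicate 3, which entered no comparison, Myl7 had 5 counts, or 3.71 CPM of a small total. By that value it would count as atrial-containing, but 5 counts give it little precision.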

How the results depend on the processing

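The class contrast called 0 genes, and also 0 with RLE factors, a filter of 50 counts in 3 libraries, additive diet and genotype terms, mitochondrial genes removed or the replicate block. It called 11 with DESeq2, 22 with no filter, 4 with no group term, 6 with HFD libraries only, 7 with Myl7 as a continuous term, and 0 to 7 with each library left out, the 7 without ApoeKO_HFD replicate 1, 4 without ApoeKO_CD replicate 3, 2 without either WT_HFD library and 1 without WT_CD replicate 2 or ApoeKO_HFD replicate 2. Fits over the 8 atrial-containing libraries, added after the data were seen, called 1 gene with group terms and 6 without. The comparison of libraries labelled ApoeKO_HFD with those labelled ApoeKO_CD, with 7 genes called, gave 0 with additive terms, which average the diet over genotypes, 12 with no class term, 3 with the replicate block, and 1 to 8 with each library left out, the 1 without ApoeKO_CD replicate 1 or 2 or any one ApoeKO_HFD library. The block changed no call of the 9 reported genes of smallest p. The causes were not tested.

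Ankrd1 kept a difference of −0.93 to −0.87 with each library left out. For the 9 reported genes of smallest p outside the atrial list, 171 alternative values kept their direction and side of the threshold, 21 newly passed it and 12 reversed. The reversals, all within the 8 atrial-containing libraries, are changes per halving of Myl7 with and without group terms: Ankrd1 0.14 and 0.19, Cebpb 0.26 and 0.41, Arid5a 0.26 and 0.14, mt-Te −0.050 and −0.38, mt-Co3 −0.64 and −0.64, and mt-Nd4l −0.58 and −0.34.

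With 3, 7 and 24 Myl7 counts in the atrial-poor libraries, differences in atrial content among them are limited by depth, and the class contrast rests on 5 HFD libraries. Without a WT_HFD library the filter's smallest group is 1 library, and more genes were tested.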
